A study of Mus musculus with 96 samples.

Results

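The medullary and the cortical stretch of the thick ascending limb (MTAL and CTAL) were compared across the transcriptome, using 14 of the 93 microdissected samples of the series. The samples were chosen by their labels alone. MTAL comprised 6 samples from 3 mice and CTAL 8 samples from 5 mice, and the mouse was the replicate. All mice were male C57BL/6 animals of 6 to 8 weeks kept on normal chow and water, and the labels give no treatment or transgene. The series as a whole covers 14 tubule segments and the glomerulus, each dissected from at least 3 mice, to chart expression along the nephron. Values are TPM, transcript abundances scaled for transcript length and to the same total in every sample.

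The thick ascending limb reabsorbs salt without water. The cotransporter NKCC2 (Slc12a1) brings sodium, potassium and chloride in from the lumen, potassium returns to the lumen through ROMK (Kcnj1), and the Na,K-ATPase extrudes sodium. The lumen-positive voltage this sets up drives cations between the cells through claudin pores. The medullary stretch feeds the osmotic gradient of the medulla and works at low oxygen tension, while the cortical stretch is known as a site of hormone-regulated calcium and magnesium reabsorption.

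The windows upstream of 5 genes are shown because the results turn on them: Sycn and Nupr1, with the largest differences in favour of MTAL, Car15, with the largest in favour of CTAL, and Casr and Cldn16, calcium and magnesium genes higher in CTAL. Each is the 250 bases before the RefSeq gene start in GRCm38.p6, 5′ to 3′ on the gene's strand. Capitals mark matches, on either strand, to any of 5 motifs. The estrogen-related receptor half-site was searched as AAGGTCA, the hypoxia response core as ACGTG, the core of NFAT5 sites as TGGAAA, the cAMP response element as TGACGTCA and the TATA box as TATAAA.
Sycn, chr7:28540635-28540884, plus strand: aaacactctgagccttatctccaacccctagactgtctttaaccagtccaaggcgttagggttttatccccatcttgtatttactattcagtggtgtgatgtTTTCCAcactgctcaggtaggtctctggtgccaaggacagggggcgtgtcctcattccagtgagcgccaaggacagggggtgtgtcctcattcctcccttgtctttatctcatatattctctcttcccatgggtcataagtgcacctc
Nupr1, chr7:126625471-126625720, minus strand: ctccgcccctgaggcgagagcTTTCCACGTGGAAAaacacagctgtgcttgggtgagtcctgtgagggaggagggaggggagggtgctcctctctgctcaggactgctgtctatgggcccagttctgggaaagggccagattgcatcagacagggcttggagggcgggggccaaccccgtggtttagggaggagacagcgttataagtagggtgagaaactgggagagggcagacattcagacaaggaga
Car15, chr16:17838187-17838436, minus strand: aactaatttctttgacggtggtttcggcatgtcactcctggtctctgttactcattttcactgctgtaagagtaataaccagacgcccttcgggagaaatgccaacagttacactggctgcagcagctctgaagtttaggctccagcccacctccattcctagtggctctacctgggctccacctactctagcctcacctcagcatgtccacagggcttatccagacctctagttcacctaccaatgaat
Casr, chr16:36562135-36562384, minus strand: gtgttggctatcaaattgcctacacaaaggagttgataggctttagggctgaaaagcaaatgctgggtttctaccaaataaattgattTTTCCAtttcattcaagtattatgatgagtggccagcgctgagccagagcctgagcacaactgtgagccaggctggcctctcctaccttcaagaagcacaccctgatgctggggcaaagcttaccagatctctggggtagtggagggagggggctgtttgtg
Cldn16, chr16:26462885-26463134, plus strand: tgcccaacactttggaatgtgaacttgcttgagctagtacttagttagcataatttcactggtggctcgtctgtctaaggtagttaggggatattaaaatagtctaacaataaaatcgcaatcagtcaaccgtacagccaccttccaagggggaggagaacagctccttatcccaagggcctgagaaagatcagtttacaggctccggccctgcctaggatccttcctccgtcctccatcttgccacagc
The Nupr1 window held a palindrome in which 2 matches to TGGAAA overlap 2 matches to ACGTG. Sycn and Casr each held 1 match to TGGAAA, and no match to the 5 motifs was found in the windows of Car15 and Cldn16. Over 9830 genes tested that had a window, TGGAAA matched in 15%, ACGTG in 21.7%, AAGGTCA in 2.84%, TGACGTCA in 2.75% and TATAAA in 6.14%. Among the genes called higher in MTAL, 142 had a window, and the shares were 23.9%, 15.5%, 6.34%, 0.704% and 6.34%. Among those called higher in CTAL, 716 had a window, and the shares were 18%, 16.5%, 2.93%, 1.68% and 8.94%. These are counts of letters, and nothing is read from them about the binding of any factor.

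The labels were checked against the genes that define the thick limb. Slc12a1 stood at 3826, 4972 and 3520 TPM in the 3 MTAL mice and at 5295, 5971, 5795, 6066 and 7530 TPM in the 5 CTAL mice. The next highest of the 15 groups was the distal convoluted tubule (DCT) at 26.3 TPM. Umod, which encodes uromodulin, the main protein of urine and a product of this segment, was at 21210 ± 3331 TPM (SD, n = 3) in MTAL and 36933 ± 1690 TPM (SD, n = 5) in CTAL, the highest levels of any group. Of the 8 markers of the neighbouring DCT, Klk1 and Wnk1 were expressed and called higher in CTAL, while 6 in MTAL and 5 in CTAL were below 1 TPM in every sample. Among the latter, Slc12a3, its thiazide-sensitive cotransporter, had a CTAL mean of 0.293 TPM, which is 0.00511% of the DCT level, and Pvalb was at 0.0245 and 0.036 TPM.

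Traces of other cell types differed between the groups and stand beside the results they touch. The summed TPM of 14 proximal tubule markers ranged from 0.77 to 43.5 over the MTAL samples and from 76.4 to 461 over the CTAL samples, with 9 and 5 of the markers, among them Lrp2, Cubn and Hnf4a, below 1 TPM in every sample. The 12 thin limb markers summed to 6.24 to 37.2 TPM in MTAL and 1.12 to 3.55 TPM in CTAL. Leukocyte markers summed to 14.6 to 1197 TPM in MTAL and 445 to 1365 TPM in CTAL, and past the adjusted p with no minimum difference 7 of 8 tested were higher in CTAL, against 25.2% of all genes, and 1, Lyz2, higher in MTAL, against 11%. Endothelial markers summed to 290 to 780 and 373 to 736 TPM, and by the same count 6 of 9 were higher in CTAL, or 4 of 9 after quantile normalization, where 17.1% of all genes were, and 0 higher in MTAL. Principal cell markers summed to 98.2 to 181 TPM in MTAL and 52.9 to 104 TPM in CTAL. But the MTAL sum was nearly all Avpr2 (97.7 to 180 TPM), which was called higher there, against 1.62% of all genes. The other 4 of the 5 tested (Aqp2, Aqp3, Fxyd4 and Hsd11b2) were called higher in CTAL, against 7.32% of all genes. Of these 4, Aqp3 and Hsd11b2 had no MTAL mouse at 1 TPM. Stromal markers summed to 1.56 to 51.9 and 10.7 to 49.8 TPM, podocyte markers to 2.01 to 9.63 and 7.7 to 16.9 TPM, and erythroid markers to 0 to 0.24 and 0.21 to 156 TPM. The 8 DCT markers summed to 751 to 1785 TPM in MTAL and 7269 to 11346 TPM in CTAL, mostly Klk1. In microdissected tubules, more cells of a type and more RNA per cell cannot be told apart. One MTAL sample, piece a of mouse 2, stood apart: it held the highest MTAL value for 11 of the 15 named genes with the largest excess in CTAL, with 67.7 TPM of Car15 where the other MTAL samples had 0 to 1.66. Piece b of MTAL mouse 1 held 884 TPM of the leukocyte gene Cd74, against 7.46 TPM in the other piece of that mouse. Results were therefore also computed without each of these pieces.

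Samples of a group resembled each other more than samples of the other group. Across the genes tested, the correlation of log2(TPM + 1) was 0.97 to 0.987 between pieces of 1 mouse, 0.964 to 0.974 between MTAL mice, 0.976 to 0.986 between CTAL mice and 0.923 to 0.95 between MTAL and CTAL samples. How deeply each library was sequenced cannot be read from TPM and is unknown.

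The genes that differed were mostly higher in the cortex. Of 13447 genes tested, 984 were higher in CTAL (7.32%) and 218 were higher in MTAL (1.62%), together 8.94%, at a Benjamini-Hochberg adjusted p under 0.05 and a log2 difference of at least 1 in limma's test. Called below means past both thresholds. Without the minimum difference, given below as at any size, 25.2% of the genes were higher in CTAL and 11% higher in MTAL. These shares were 20.9% and 15.7% after median ratio rescaling and 17.1% and 19.8% after quantile normalization. The filter kept genes at 1 TPM in at least 3 mice. A gene seen in MTAL alone therefore had to reach 1 TPM in every MTAL mouse. One seen in CTAL alone could miss it in some CTAL mice. The filter passed 552 genes with no MTAL mouse at 1 TPM and 69 with no CTAL mouse there. The direction of such genes was set by the filter. They made up 262 of the 984 genes called higher in CTAL and 23 of the 218 called higher in MTAL. Of the called members of a gene list below, 0 to 3 were such genes. The mice of both groups did not overlap for 36.4% of all genes tested. The median log2 difference over all genes, MTAL minus CTAL, was -0.10, and the scaling moves it: after quantile normalization it was 0.05 and the calls divided into 667 higher in CTAL and 395 higher in MTAL, so that 37.2% of calls favoured MTAL against 18.1% in the values as deposited. Without piece a of MTAL mouse 2 the calls were 997 and 233, and without piece b of MTAL mouse 1 they were 1043 and 233.

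**Figure D1:**
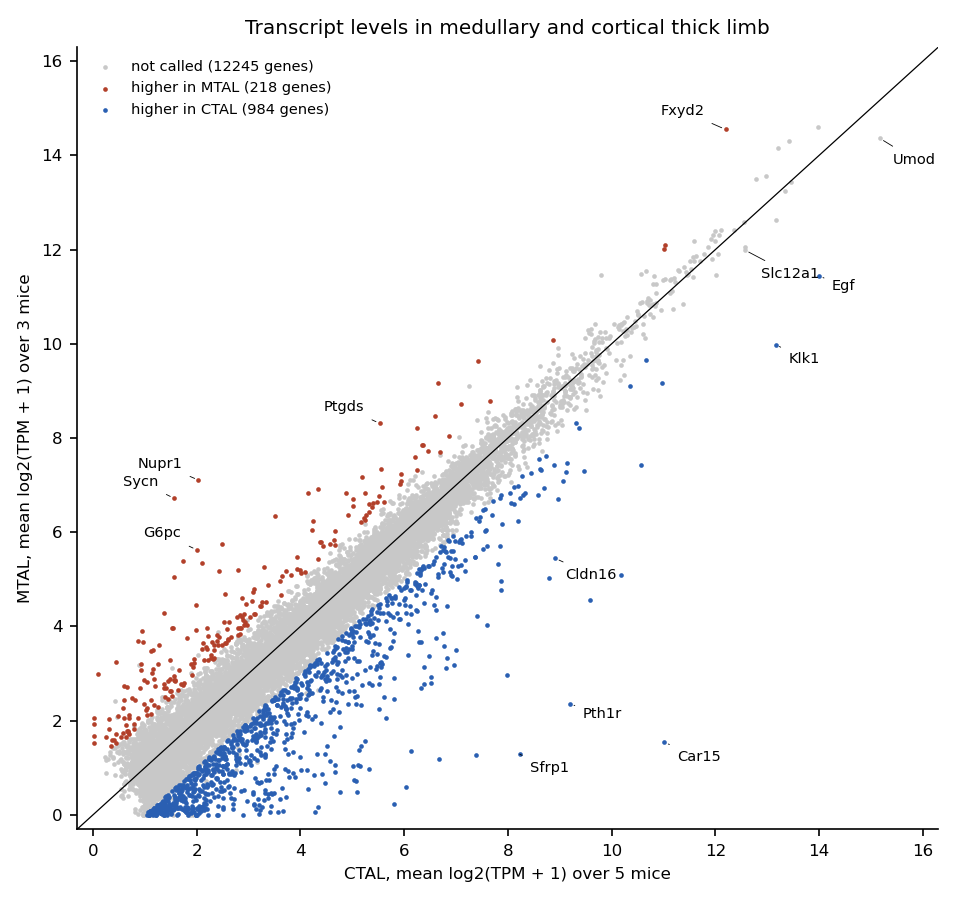
Mean log2(TPM + 1) of each of 13447 genes in CTAL (horizontal, 5 mice) and MTAL (vertical, 3 mice), with the diagonal of equal levels. Blue genes (984) were called higher in CTAL and red genes (218) higher in MTAL. Car15, Sfrp1 and Pth1r lie farthest below the diagonal, Sycn and Nupr1 farthest above, and Slc12a1 and Umod lie close to it.

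Sycn had the largest difference in favour of MTAL. It encodes syncollin, known as a protein of the zymogen granules of the exocrine pancreas. Its level was 116, 74.3 and 133 TPM in the MTAL mice and 2.29, 1.89, 1.63, 1.03 and 3.45 TPM in the CTAL mice. The groups did not overlap, and the means differed 52.3-fold (5.16 ± 0.25 log2 units, SE, adjusted p = 3.38e-07). MTAL was also the highest of the 15 groups for Sycn, followed by the thin ascending limb (ATL) at 7.89 TPM.

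Nupr1, a stress-induced nuclear protein, followed with 134, 118 and 162 TPM in MTAL and 1.35 to 3.94 TPM in CTAL, a log2 difference of 5.07 ± 0.23 (SE, adjusted p = 2.14e-07). Its MTAL level was low beside ATL, where the mean was 6800 TPM, of which the MTAL mean is 2.03%. The thin limb markers Psca (8.41 TPM in MTAL) and Igfbp2 (4.24 TPM) stood at 0.0611% and 0.126% of their ATL means in MTAL. Scel, which encodes sciellin of the cornified envelope, was at 32.4 ± 3.79 TPM in MTAL (SD, n = 3) and 2.05 ± 0.744 TPM in CTAL (SD, n = 5). Spag5, a protein of the mitotic spindle, was at 80.8 ± 10.3 against 10.4 ± 1.02 TPM. For both, as for Ankrd33b (19.7 against 1.66 TPM), ATL was the highest group.

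G6pc encodes the catalytic subunit of glucose-6-phosphatase, which releases free glucose at the end of gluconeogenesis. It was at 74, 26 and 58.5 TPM in the MTAL mice and between 2.71 and 3.45 TPM in the CTAL mice (log2 difference 3.62 ± 0.27, SE, adjusted p = 5.22e-06). The lowest MTAL mouse thus lay far above the highest CTAL mouse. G6pc is highest in the first proximal segment (729 TPM), and the part played by proximal transcripts was not tested.

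Npb, the precursor of neuropeptide B, was at 112, 88.1 and 148 TPM in MTAL and 11.1 to 23.3 TPM in CTAL (2.69 ± 0.22 log2 units, SE, adjusted p = 1.09e-05), and MTAL was its highest group. Ptgds, which makes prostaglandin D, was at 320 ± 59.6 TPM in MTAL (SD, n = 3) and 46 ± 9.1 TPM in CTAL (SD, n = 5). Lcn2, the iron-scavenging lipocalin NGAL, was at 22.8 and 3.01 TPM. Cck, the cholecystokinin precursor, was uneven among the MTAL mice: it was at 53.5 TPM in MTAL mouse 2 and at 6.07 and 4.4 TPM in the others, against 0.288 to 3.39 TPM in CTAL, and its call was lost without piece b of MTAL mouse 1 (adjusted p = 0.0709). Npy had the same shape, with 44.5 TPM in MTAL mouse 2, 7.1 and 9.34 TPM in the other MTAL mice and 0.34 to 4.01 TPM in CTAL.

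Other genes among the 15 largest were Cdkn2b, the cell-cycle inhibitor p15, at 40 ± 5.1 TPM in MTAL and 3.37 ± 0.855 TPM in CTAL, and Slc25a48, a mitochondrial carrier, at 13 and 0.821 TPM. The histone genes Hist1h1c (128 against 19.9 TPM) and Hist1h4h (37.4 against 4.42 TPM) belong to a family of near-identical copies, so the split of their reads is uncertain. The antisense gene Prox1os (14.6 against 0.953 TPM) overlaps other transcripts, and no source used here states that strand was kept. Trac, the constant segment of the T cell receptor alpha chain, was at 62.6, 31.7 and 74.4 TPM in MTAL and 2.39 to 6.31 TPM in CTAL, but 9 of the 11 T cell markers, among them Cd3e, Cd3d, Cd4 and Trbc1, were below 1 TPM in every sample of both groups.

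Among the most abundant genes called higher in MTAL, Fxyd2 led. It encodes the gamma subunit that modulates the Na,K-ATPase. The MTAL mice held 22234, 21162 and 29328 TPM and the CTAL mice 3714, 5527, 4424, 4650 and 5376 TPM, a 5.12-fold difference of means (2.35 ± 0.14 log2 units, SE, adjusted p = 1.43e-06). Nccrp1, an F-box protein, was at 801 ± 140 TPM in MTAL (SD, n = 3) and 172 ± 26 TPM in CTAL (SD, n = 5). Tmem86a, a lysoplasmalogenase, was at 637 ± 328 and 105 ± 35.8 TPM. Pcyt2, of phosphatidylethanolamine synthesis, was at 1090 and 471 TPM. MTAL was the highest of the 15 groups for Fxyd2, Nccrp1 and Pcyt2.

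Car15, a membrane-anchored carbonic anhydrase, was the most divided gene. It stood at 0.596, 12.5 and 0.136 TPM in the MTAL mice and at 1388, 1780, 2634, 2811 and 2096 TPM in the CTAL mice. All CTAL mice lay far above the highest MTAL mouse, and the log2 difference was 9.48 ± 0.65 in favour of CTAL (SE, adjusted p = 2.95e-06). Without piece a of MTAL mouse 2 it was 10.26. CTAL was its highest group, ahead of the connecting tubule (CNT, 1336 TPM) and the cortical collecting duct (CCD, 1121 TPM).

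Sfrp1, a secreted antagonist of Wnt ligands, was at 0.82, 3.55 and 0.763 TPM in MTAL and at 217, 307, 331, 375 and 288 TPM in CTAL (6.94 ± 0.29 log2 units higher in CTAL, SE, adjusted p = 1.26e-07). DCT alone was higher, at 760 TPM. Dusp9, a phosphatase of MAP kinases, was at 0.511 ± 0.0357 TPM in MTAL (SD, n = 3) and 69.5 ± 29.1 TPM in CTAL (SD, n = 5), and its DCT mean was 4.6 TPM. Shd, an SH2-domain adaptor, was at 7.01 ± 1.74 and 255 ± 31 TPM, and Sulf2, an extracellular sulfatase acting on heparan sulfate, at 1.58 ± 0.371 and 69.3 ± 8.37 TPM. Enox1, a cell-surface oxidase, was at 0.143 and 19.6 TPM. CTAL was the highest group for Dusp9, Shd, Sulf2 and Enox1.

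A further set of these genes is known from other segments. Tmem52b was at 24.6 ± 13.4 TPM in MTAL and 768 ± 52.1 TPM in CTAL and is highest in DCT. Car12, a carbonic anhydrase (1.29 against 102 TPM), and Oxgr1, the oxoglutarate receptor (0.0435 against 18.9 TPM), are highest in CNT, of which their CTAL means are 4.46% and 5.69%. The proximal tubule genes Ggt1, gamma-glutamyltransferase (41.5 against 1161 TPM), and Slc1a1, a glutamate transporter (0.416 against 26.4 TPM), had CTAL means of 29.7% and 7.98% of the highest proximal segment. Kap, an androgen-regulated proximal tubule protein, was at 1.89 TPM in MTAL and 60.8 to 379 TPM in CTAL, and Fbp1, the gluconeogenic bisphosphatase, at 0.762 and 32.3 TPM, but these CTAL means are 0.266% and 0.737% of the highest proximal level. Of the 14 proximal tubule markers, 7 passed the filter on low values, which they did through the CTAL mice, so their direction was largely set by the filter. Their CTAL means were 0.112% to 0.387% of the highest proximal mean. For Ggt1, Slc1a1, Kap, Fbp1 and those markers the part played by proximal transcripts was not tested.

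**Figure D2:**
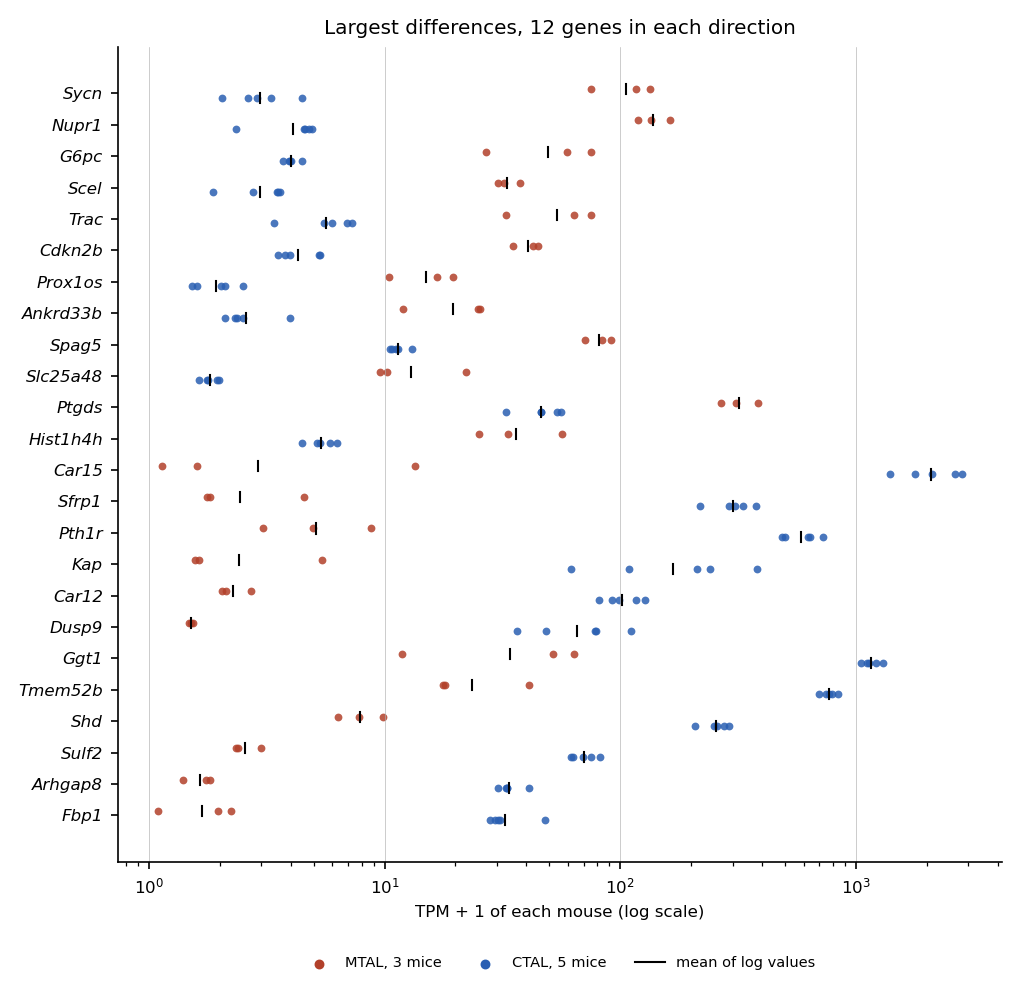
TPM + 1 of each mouse on a log axis for the 12 named genes with the largest difference in each direction, with MTAL in red (3 mice), CTAL in blue (5 mice) and a bar at the mean of the log values. The genes were chosen for having no overlap, so the red and blue points are apart in every row. MTAL mouse 2 is the right-hand red point for Car15, Sfrp1, Pth1r and Kap.

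Of 20 genes tested on the list of apical and basolateral salt carriers, 1 was called higher in MTAL, against 1.62% of all genes, and 4 higher in CTAL, against 7.32% (3 and 12 at any size, against 11% and 25.2%), with a median log2 difference of -0.53. Over the 17 thick limb identity genes the counts were 0 and 6, with a median of -0.58, and at any size 4 were higher in MTAL and 9 higher in CTAL, against 11% and 25.2% of all genes. Slc12a1 was 1.49-fold higher in CTAL (-0.58 ± 0.13 log2 units, MTAL minus CTAL, SE, adjusted p = 0.00592) and Umod 1.74-fold higher (-0.81 ± 0.10, adjusted p = 0.00015). Both fall short of the minimum difference. Kcnj1 was at 1180 ± 196 TPM in MTAL and 1257 ± 156 TPM in CTAL, and its groups overlapped. Bsnd, which encodes barttin, was at 309 ± 39.7 TPM in MTAL and 485 ± 65.5 TPM in CTAL, without overlap.

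Transport genes called higher in CTAL included Slc9a2, the sodium-proton exchanger NHE2, at 5.88 ± 1.12 against 40.6 ± 3.96 TPM, and Slc5a1, the sodium-glucose cotransporter SGLT1, at 114 ± 42 against 387 ± 53.5 TPM. On the potassium channel list, 6 of 22 genes passed the filter on low values. Kcnj16, a basolateral inward rectifier, was at 164 TPM in MTAL and 392 TPM in CTAL, and Kcnq1 at 28.4 and 58.8 TPM. Kcnt1, a sodium-activated potassium channel, was the member higher in MTAL, at 58.1 against 25.9 TPM. The last pair of calls depended on single mice: without MTAL mouse 3 the difference for Kcnq1 was -0.80, and without MTAL mouse 1 that for Kcnt1 was 0.90 with an adjusted p of 0.0864. Kcnq1 also fell short under median ratio rescaling (-0.97) and quantile normalization (-0.94). Kcnt1 also lost its call with no filter on low values (adjusted p = 0.0918 in limma's test).

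The WNK kinase pathway switches the cotransporters on by phosphorylation. On its list, which also holds genes of cotransporter control, 3 of 22 tested were called higher in CTAL and 0 in MTAL. Among all genes these shares were 7.32% and 1.62%. At any size the counts were 10 and 3, against 25.2% and 11%. Wnk1 was at 10, 11 and 9.82 TPM in MTAL and at 94.2, 115, 149, 137 and 155 TPM in CTAL (3.52 ± 0.15 log2 units, SE, adjusted p = 1.58e-07). Gene-level TPM do not show which Wnk1 isoform this is. DCT held 1007 TPM. Sgk1, an aldosterone-induced kinase, was at 7.51 ± 3.8 and 27.1 ± 7.84 TPM. The third called member, Melk, is a cell-cycle kinase that reached a mean of 1.13 TPM in CTAL. It had no MTAL mouse at 1 TPM, so its direction was set by the filter.

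Among genes of calcium and magnesium handling, those called higher in CTAL numbered 8 of 20 tested, against 7.32% of all genes, and 0 higher in MTAL, against 1.62% (11 and 3 at any size, against 25.2% and 11%). Pth1r, the parathyroid hormone receptor, was at 3.98, 7.74 and 2.06 TPM in MTAL and 635, 624, 499, 723 and 483 TPM in CTAL (6.85 ± 0.27 log2 units, SE, adjusted p = 1.01e-07), with 567 TPM in DCT and the highest level in the glomerulus (1088 TPM). Casr, the calcium-sensing receptor, was at 43.1, 46.4 and 30.6 TPM in MTAL and 244, 209, 231, 216 and 224 TPM in CTAL (2.48 ± 0.12 log2 units, adjusted p = 4.21e-07). CTAL was the highest of the 15 groups for Casr, followed by CCD (52.6 TPM), CNT (49.9 TPM), DCT (43.9 TPM) and MTAL. Vdr, the vitamin D receptor, was at 13.3 ± 5.7 against 96.9 ± 10.3 TPM, and Kl, the FGF23 coreceptor klotho, at 26.6 ± 4.22 against 232 ± 16.8 TPM. Slc41a1, a magnesium transporter, was at 9.02 and 24.3 TPM. S100g, the calcium-binding protein calbindin-D9k, was at 9.22 and 34.1 TPM, of which the CTAL mean is 0.107% of the DCT mean.

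The claudins did not move together. Cldn16, a claudin of the paracellular calcium and magnesium pathway, was at 41.2, 91.9 and 20.2 TPM in the MTAL mice and 482, 508, 481, 494 and 443 TPM in the CTAL mice (3.47 ± 0.35 log2 units higher in CTAL, SE, adjusted p = 3.96e-05). Its partner Cldn19 overlapped between groups, at 318 ± 65.7 and 390 ± 48.8 TPM. Cldn10, whose b form makes a sodium pore, was at 1150, 1239 and 1377 TPM in MTAL and 698 to 771 TPM in CTAL, without overlap (0.75 ± 0.07 log2 units, SE, adjusted p = 3.77e-05, under the minimum difference). Cldn14, an inhibitor of the Cldn16 pathway, was listed at 0 in all MTAL mice and at 14.9, 0.91, 6.63, 1.08 and 1.22 TPM in the CTAL mice. Its call (adjusted p = 0.0294) was lost without any one of the MTAL mice (0.0592 to 0.0814), without CTAL mouse 3 (0.0603) and under quantile normalization (0.0523). In all, 6 of 22 genes of claudins and tight junctions were called higher in CTAL and 0 higher in MTAL (12 and 3 at any size), where all genes gave 7.32% and 1.62% (25.2% and 11%). Of the 6, 3 had no MTAL mouse at 1 TPM, and the others included the junction proteins Tjp3 (16.9 against 59.8 TPM) and F11r (26.8 against 68.5 TPM).

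**Figure D3:**
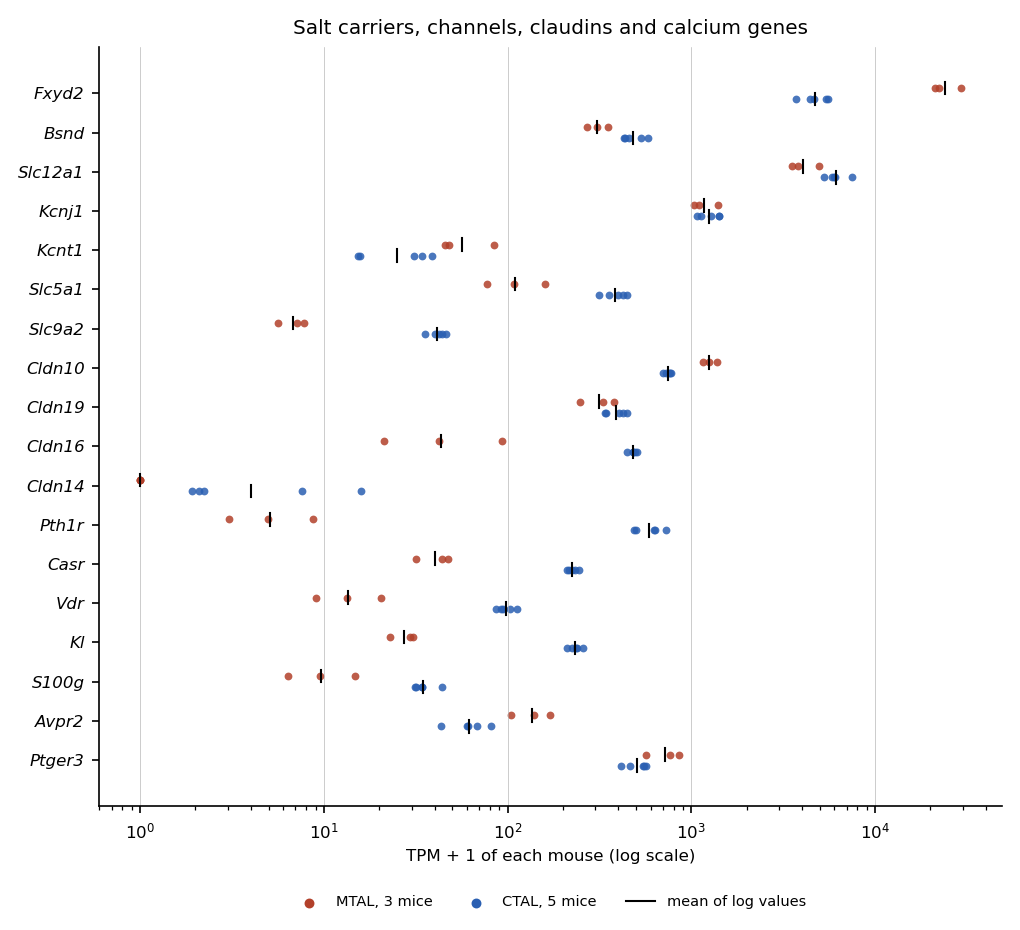
TPM + 1 of each mouse on a log axis for 18 genes of salt transport, claudins, calcium handling and hormone receptors, with MTAL in red (3 mice), CTAL in blue (5 mice) and a bar at the mean of the log values. Kcnj1 and Cldn19 overlap, and the calcium genes Pth1r, Casr, Vdr and Kl lie to the right in CTAL.

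Of 41 genes tested on the list of hormone receptors, cyclases and related enzymes, 2 were called higher in MTAL (all genes, 1.62%) and 6 higher in CTAL (all genes, 7.32%), Pth1r and Casr among the 6, of which 3 had no MTAL mouse at 1 TPM (5 and 17 at any size, against 11% and 25.2%). Avpr2, the vasopressin V2 receptor, was at 103, 139 and 169 TPM in MTAL and 67.4, 59.1, 80.1, 42.3 and 59.6 TPM in CTAL (1.14 ± 0.20 log2 units, SE, adjusted p = 0.00151). Without MTAL mouse 3 the difference was 0.97. Htr1b, a serotonin receptor, was at 7.57 ± 1.36 and 2.2 ± 0.622 TPM. Higher in CTAL were Adora2b, an adenosine receptor (0.39 against 9.57 TPM), Ptger4, a prostaglandin E receptor (0.417 against 4.49 TPM), and Fgfr3 (0.749 against 4.62 TPM). Ptger3, another prostaglandin E receptor and far more abundant, was at 728 ± 151 TPM in MTAL and 507 ± 66.1 TPM in CTAL. On the macula densa list, 2 of 10 genes passed the filter, and the one called was Ramp3, a receptor partner protein (5.43 against 14.6 TPM).

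Among acid-base genes, 8 of 23 tested were called higher in CTAL and 0 in MTAL (12 and 3 at any size), beside 7.32% and 1.62% (25.2% and 11%) of all genes, Car15, Car12 and Slc9a2 among them. Of the 8, 3 (Atp6v0d2, Rhcg and Slc26a7) had no MTAL mouse at 1 TPM, so their direction was set by the filter. Atp6v1b1, a subunit of the proton pump, was at 19.9 ± 10.2 and 172 ± 37.3 TPM. Atp6v0d2 (0.0131 against 8.36 TPM), itself 1 of the 8 intercalated cell markers, and the ammonia channel Rhcg (0.00332 against 1.23 TPM) are intercalated cell and collecting duct genes. The 8 markers summed to 0.01 to 0.16 TPM in MTAL and to 8.18 to 15.7 TPM in CTAL, mostly Atp6v0d2, with 4 of them below 1 TPM in every CTAL sample, and the part played by intercalated cell transcripts was not tested.

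Of 26 secreted and luminal proteins tested, 9 were called higher in CTAL, beside 7.32% of all genes, and 1, Lcn2, higher in MTAL, beside 1.62% (15 and 2 at any size, beside 25.2% and 11%). Egf, the epidermal growth factor precursor shed into urine, was at 3828, 3022 and 1840 TPM in MTAL and 14101, 15608, 15033, 18364 and 19386 TPM in CTAL, a 5.7-fold difference (2.56 ± 0.20 log2 units, SE, adjusted p = 7.79e-06). CTAL was the highest of the 15 groups. Klk1, tissue kallikrein, was at 1038 ± 310 TPM in MTAL and 9233 ± 1313 TPM in CTAL, against 48656 TPM in DCT. The Klk1 level in CTAL is 19% of that in DCT, and the part played by DCT transcripts was not tested. Wfdc2 was at 586 ± 133 and 2022 ± 194 TPM, Clu (clusterin) at 4.86 and 33.2 TPM, and Fkbp11, a prolyl isomerase of the endoplasmic reticulum, at 2.04 ± 0.794 and 37.2 ± 3.68 TPM. Wfdc2 has its highest level in CTAL.

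Transcripts of the mitochondrial genome made up 8.14%, 5.34% and 8.46% of the TPM in the MTAL mice and 4.62%, 4.69%, 3.84%, 4.31% and 4.56% in the CTAL mice. The groups did not overlap, and the exact two-sided permutation p was 0.0357, the smallest that 3 against 5 mice allow (adjusted over 15 such measures, 0.0595). Of 13 mitochondrial genes listed, 7 passed the filter on low values, so the counts cover only part of the mitochondrial genome. The rest did not reach 1 TPM in 3 mice, and why was not tested. Among the 7 tested, 5 were higher in MTAL at any size, against 11% of all genes, and 0 lower, against 25.2%. After quantile normalization 4 were higher, against 19.8%, and the median of the list went from 0.60 to 0.36 while that of all genes went from -0.10 to 0.05. The member mt-Cytb was at 25406 ± 6211 and 16075 ± 1192 TPM. The one also past the minimum, mt-Nd2 (4236 against 2059 TPM), fell under it without MTAL mouse 1 (0.95), without MTAL mouse 3 (0.84), without CTAL mouse 3 (0.96) and under quantile normalization (0.86).

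With no minimum difference, 22 of 81 nuclear-encoded subunits of the respiratory chain were higher in MTAL and 4 higher in CTAL, where all genes gave 11% and 25.2%, with a median log2 difference of 0.11 beside -0.10 over all genes. Median ratio rescaling gave 33 and 3, where all genes gave 15.7% and 20.9%. Quantile normalization gave 19 (23.5%) and 7 (8.64%), where all genes gave 19.8% and 17.1%, and the medians were then 0.07 and 0.05, so that the gap between the list and all genes nearly closed. Of the 81, 1 was called higher in MTAL and 1, Cox6b2, higher in CTAL, against 1.62% and 7.32% of all genes. The one higher in MTAL was Cox7a1, a muscle-type subunit of complex IV. Cox7a1 was at 444, 328 and 503 TPM in MTAL and 93.2 to 170 TPM in CTAL (1.62 ± 0.19 log2 units, SE, adjusted p = 0.000135). Of 24 enzymes of the TCA cycle, 1 was higher in MTAL and 13 higher in CTAL at any size, beside the same 11% and 25.2%, with a median of -0.40. For fatty acid oxidation the counts were 1 and 19 of 29, with a median of -0.37, and the members past the minimum difference were Acsm2, Acsm3, Cd36, Fabp4 and Slc27a2. Acsm3 had no MTAL mouse at 1 TPM. The summed proximal tubule markers given above were also higher in CTAL. At any size 6 of 9 endothelial markers were as well, against 25.2% of all genes, though their summed TPM overlapped. The part of either set of markers in the TCA cycle and fatty acid counts was not tested. Quantile normalization left 0 and 12 of the TCA cycle and 0 and 17 of fatty acid oxidation, where all genes gave 19.8% and 17.1%. Of 18 mitochondrial regulators tested, 6 were higher in MTAL and 5 higher in CTAL at any size, against 11% and 25.2% of all genes. Past both thresholds the counts were 1, which was Ckb, and 0, against 1.62% and 7.32%. Among the regulators, the estrogen-related receptors Esrra (98.3 ± 22 against 53.9 ± 4.26 TPM) and Esrrb (19.4 ± 3.07 against 9.8 ± 1.23 TPM) did not overlap and lay just under the minimum difference. Ckb, brain-type creatine kinase, was at 4428 ± 830 and 2150 ± 555 TPM (log2 difference 1.06 ± 0.20), which fell to 0.95 without MTAL mouse 2, to 0.95 without CTAL mouse 4 and to 0.96 under quantile normalization. With all 15 groups in limma's fit its call was lost as well (adjusted p = 0.069).

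For glycolysis, 2 of 30 genes tested were called higher in MTAL and 6 higher in CTAL, beside 1.62% and 7.32% of all genes (6 and 8 at any size, beside 11% and 25.2%), with a median of 0. Aldoc, aldolase C, was at 340, 361 and 357 TPM in MTAL and 82.6 to 118 TPM in CTAL (1.88 ± 0.12 log2 units, SE, adjusted p = 2.27e-06), and MTAL was its highest group. Eno1 (1227 against 881 TPM) and Ldha (624 against 424 TPM) were separated without overlap by less than the minimum difference. On the CTAL side were the insulin-responsive glucose transporter Slc2a4 (124 ± 18.1 against 280 ± 34 TPM) and Pgam2 (7.06 against 93.2 TPM), a mutase highest in DCT. Pck1 (0.314 against 4.2 TPM) and Fbp1, of gluconeogenesis, and the fatty acid genes Slc27a2 (1.11 against 36 TPM) and Acsm2 (0.623 against 13.1 TPM) are most abundant in the proximal tubule, where Slc27a2 and Acsm2 exceed their CTAL means so far that these are 0.272% and 0.159% of the level there.

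On the osmotic list, 3 of 24 genes were called higher in MTAL, against 1.62% of all genes, and 2 higher in CTAL, against 7.32% (also 3 and 2 at any size, against 11% and 25.2%), with a median of -0.07. Slc6a12, the betaine transporter, was at 7.23, 7.47 and 6.43 TPM in MTAL and 0.575 to 2.17 TPM in CTAL (1.87 ± 0.21 log2 units, SE, adjusted p = 9.38e-05). Ranbp3l, a nuclear export adaptor, was at 106 ± 33.4 and 31.9 ± 5.36 TPM, and Ckb was the third. The difference for Slc6a12 was 0.95 with a pseudocount of 5, and Ckb lost its call in the settings given above. The 2 called higher in CTAL were Sgk1 and Slc6a6. The osmolyte genes Slc5a3, Akr1b3 and Nfat5 were not called, with log2 differences of 0.26, 0.02 and 0.39. On the hypoxia list, 1 of 26 genes was called higher in MTAL, Ankrd37 (11.3 ± 4.87 against 3.4 ± 1.14 TPM), and 2 higher in CTAL, Car12 and Pfkfb3 (0.896 against 6.06 TPM), against 1.62% and 7.32% of all genes. At any size 3 were higher in MTAL and 10 higher in CTAL, against 11% and 25.2%, and 4 and 5 after quantile normalization, against 19.8% and 17.1%. The median was -0.05. Both medians depend on the scaling, being 0.08 and 0.11 after quantile normalization.

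Transcription factors called higher in CTAL numbered 8 of 42, with 0 in MTAL (14 and 4 at any size), beside 7.32% and 1.62% of all genes (25.2% and 11%). Foxq1 was at 1.75, 2.03 and 1.07 TPM in MTAL and 29.1, 50.2, 27.3, 31.4 and 36.3 TPM in CTAL (3.76 ± 0.20 log2 units, SE, adjusted p = 6.09e-07). Tfcp2l1 was at 30.3 ± 18.4 and 76.4 ± 3.47 TPM, with 51.5 TPM in MTAL mouse 2, Nr1h4, the bile acid receptor FXR, at 29.6 and 74 TPM, Irx2 at 35.8 and 79.2 TPM, and the inhibitors of differentiation Id1 at 5.07 and 17 TPM and Id2 at 176 and 472 TPM. Of 26 Hox genes tested, which pattern the body axis, 10 were higher in MTAL and 7 higher in CTAL with no minimum difference, against 11% and 25.2% of all genes. The 10 were Hoxa4, Hoxa5, Hoxa7 and 7 genes of the Hoxb cluster, among them Hoxb9 (32.7 ± 2.13 against 11.5 ± 0.466 TPM, 1.43 ± 0.10 log2 units, adjusted p = 2.84e-06), Hoxb6 (57 against 29.8 TPM) and Hoxa7 (57.4 against 32.5 TPM). Of the 26 tested, Hoxa4, Hoxb4 and Hoxb8 had no CTAL mouse at 1 TPM, so their direction was set by the filter. The 7 were 3 each of the Hoxc and Hoxd clusters and Hoxa10, among them Hoxd8 (114 ± 13.2 against 262 ± 12.3 TPM) and Hoxc8 (1.16 against 5.04 TPM). Median ratio rescaling gave 10 and 4, against 15.7% and 20.9% of all genes, and quantile normalization 12 and 3, against 19.8% and 17.1%.

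In Wnt and Notch signalling, Wnt7b, a ligand, was at 42, 103 and 62.9 TPM in MTAL and 14.4 to 21 TPM in CTAL (1.82 ± 0.24 log2 units, SE, adjusted p = 0.000294). Sfrp1, the receptor Fzd7 (1.41 against 4.98 TPM) and the Notch ligand Jag1 (5.12 against 12.6 TPM) were higher in CTAL, making 1 and 3 of 15 tested, beside 1.62% and 7.32% of all genes (2 and 7 at any size, beside 11% and 25.2%). Immediate early genes can be induced by handling of tissue. On the list of early response and stress genes, 7 of 27 tested were called higher in CTAL and 0 higher in MTAL, beside the same 7.32% and 1.62%. At any size the counts were 10 and 1, beside 25.2% and 11%. Ier3 was at 9.59 ± 2.56 and 91.8 ± 26.2 TPM, Btg2 at 9.63 and 32 TPM, and Jun at 17.9 and 42.9 TPM. Fos and Egr1 overlapped between the groups (0.461 to 6.57 against 2.8 to 43.9 TPM, and 1.13 to 5.06 against 3.64 to 26.6 TPM). The call for Egr1 was lost without MTAL mouse 2 (adjusted p = 0.0516), and that for Fos without MTAL mouse 1 (0.105) or 2 (0.0869) and without CTAL mouse 2 (0.0562), 3 (0.0513) or 5 (0.0585). With all 15 groups in the fit the calls for Jun (0.358), Egr1 (0.39) and Fos (0.411) were lost. Those for Egr1 (0.0507) and Fos (0.0645) were also lost without the CTAL mice of 1 piece. With pieces averaged before the log the call for Fos was lost as well (0.12). The summed level of the whole list, 1133 to 2184 TPM in MTAL and 1357 to 2096 TPM in CTAL, overlapped.

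The collecting duct offered a second pair of cortical and outer medullary segments that shares no sample with the thick limb: 5 CCD mice and 4 mice of the outer medullary collecting duct (OMCD). The pair differs in one respect that limits the comparison, since a mean of 18338 genes reached 1 TPM in OMCD mice and 13605 in CCD mice, and the median log2 difference, OMCD minus CCD, was 0.28. In the fit of these 4 groups, 18.9% of 18279 genes were called higher in OMCD and 3.27% higher in CCD. Of the 984 genes higher in CTAL, 210 (21.3%) were also higher in CCD, which is 35.1% of the genes higher in CCD, and 71 (7.22%) were higher in OMCD. Of the 218 genes higher in MTAL, 72 (33%) were also higher in OMCD, which is 2.09% of the genes higher in OMCD, and 7 (3.21%) were higher in CCD.

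Genes divided the same way in both pairs included Car15 (OMCD minus CCD, -4.63 ± 0.55 log2 units, SE, adjusted p = 1.59e-06), Tmem52b (-6.83 ± 0.22) and Atp4a, the gastric proton pump subunit (-3.19 in the thick limb and -4.74 in the duct). The proximal tubule genes Kap (-5.10) and Slc34a1 (-3.46) were lower on the medullary side of both pairs. On the medullary side were Scel (4.84 ± 0.18), Ptgds (3.94 ± 0.24), Cck (3.57), Lcn2 (3.11), Npy (3.06), Spag5 (2.68), Hist1h1c (2.60), Npb (2.18) and Trac (2.16).

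The difference between the thick limb and duct contrasts was tested directly and was called for 25.7% of the genes, positive in 449 and negative in 4247. Quantile normalization gave 1165 and 1240. Sycn was higher in MTAL by 5.16 log2 units but differed by 0.52 ± 0.24 between OMCD and CCD, a difference between contrasts of 4.64 ± 0.36 (SE, adjusted p = 4.45e-08). Sycn was nearly absent from the duct, at 0.571 TPM in OMCD and 0.0448 TPM in CCD. With a pseudocount of 1 its duct difference could only be small, so nothing is read from it about the duct. Sfrp1, Shd, Dusp9, Sulf2 and Enox1 were likewise divided in the thick limb and lay within 0.72 log2 units between OMCD and CCD, with differences between contrasts of -7.66, -5.65, -5.40, -4.95 and -4.60. Their levels in the duct were low, at 0.00495 to 2.75 TPM in OMCD and 0.03 to 2.3 TPM in CCD. Their duct differences were therefore bound to be small, and these differences between contrasts restate those of the thick limb. Fxyd2 reversed: it was higher in MTAL than in CTAL by 2.35 but lower in OMCD than in CCD by 4.92 (OMCD minus CCD, -4.92 ± 0.18), which gives a difference of 7.28 ± 0.26 (SE, adjusted p = 3.05e-12). Cox7a1 and Ckb reversed in the same sense, and Ly6c1, Wfdc2, Bmp4 and Slc4a11 in the opposite one.

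**Figure D4:**
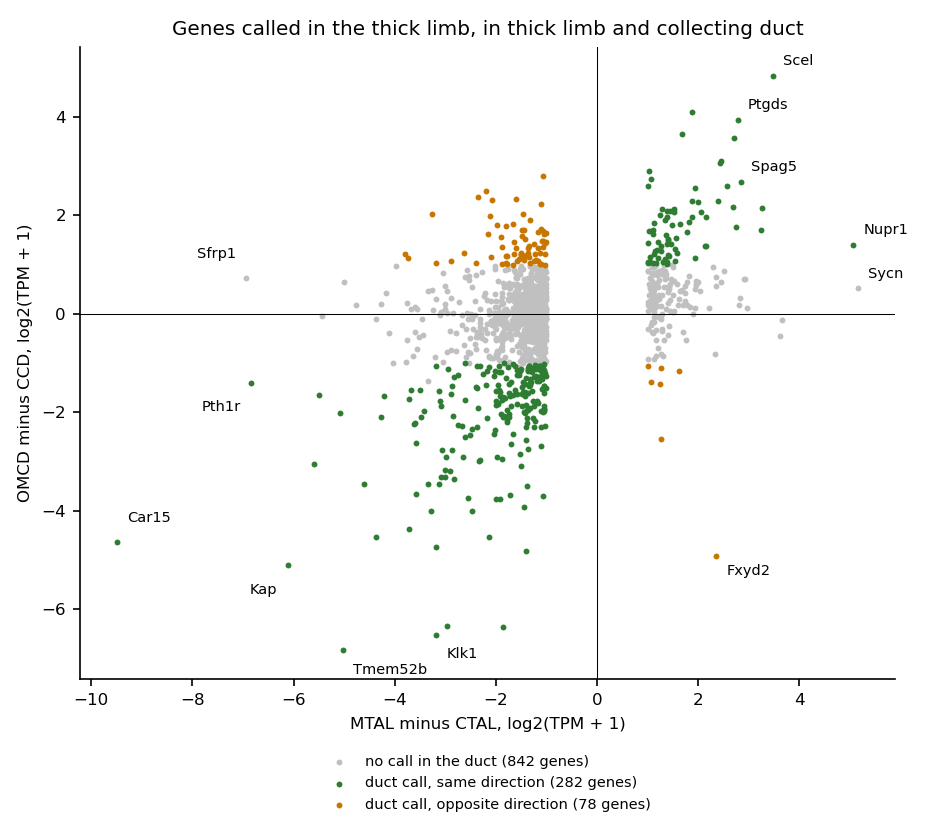
Log2 differences of the genes called between MTAL and CTAL, with MTAL minus CTAL on the horizontal axis and OMCD minus CCD on the vertical axis. Green genes were called in the same direction in the duct, orange genes in the opposite direction and grey genes not at all. Car15, Kap and Tmem52b lie at the lower left, Scel and Ptgds at the upper right, and Fxyd2 at the lower right.

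Of the 218 genes higher in MTAL, 57 (26.1%) had their highest mean of the 15 groups in MTAL, 44 in ATL and 21 in the short descending limb (DTL1), and the share highest in MTAL over all genes tested was 4.13%. Of the 984 higher in CTAL, 113 (11.5%) had their highest mean in CTAL, 230 in the glomerulus, 161 in a proximal segment, 97 in DTL1, 93 in CCD and 83 in DCT, and the share highest in CTAL over all genes was 3.36%. A gene called higher in a segment is more likely to be highest there by the choice itself. For 81 of the 984 the CTAL mean was under 1% of the highest group, which was proximal in 60, and for 3 of the 218 the MTAL mean was under 1% of the highest group.

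**Figure D5:**
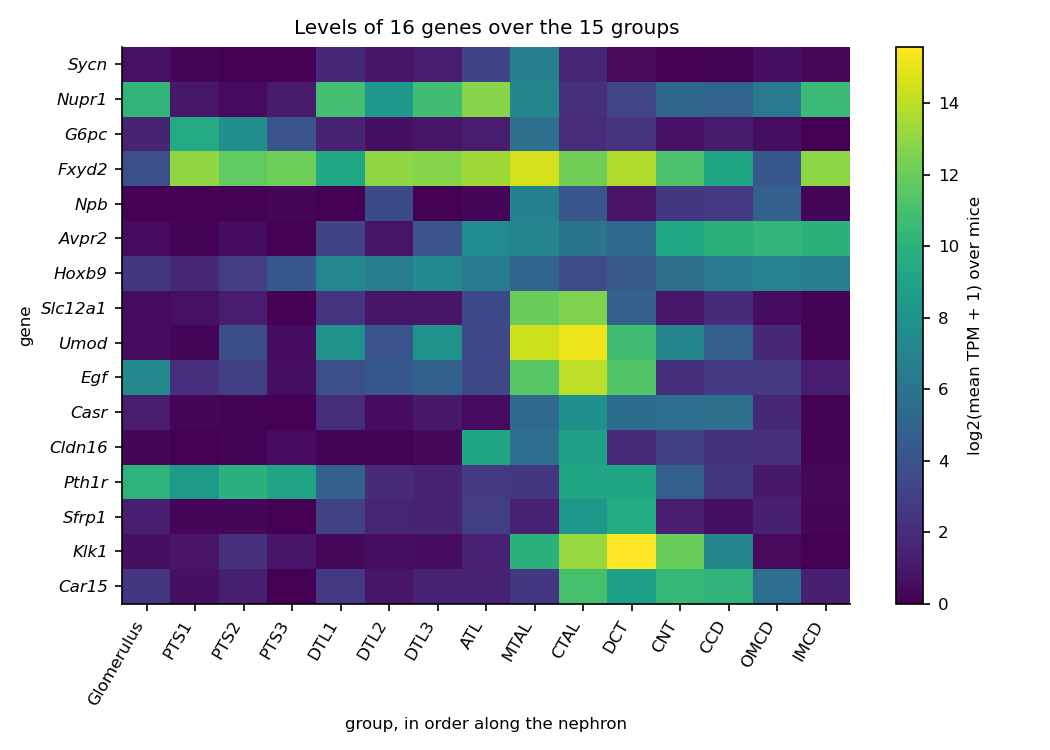
Log2(mean TPM + 1) of 16 genes (rows) in the 15 groups (columns, in order along the nephron), on a colour scale from 0 (dark) to the highest level (yellow). Sycn and Npb are at their highest in MTAL, Egf, Casr and Car15 in CTAL, while Nupr1 is highest in ATL and Klk1 and Sfrp1 in DCT.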

How the data were processed

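Poly(A) RNA of microdissected segments was amplified and sequenced by the study's authors, per the labels' protocols. They deposited a table of TPM for 54532 genes. STAR 2.5.4a and RSEM 1.3.0 are named in the submitters' processing notes. The genome build, annotation and read depth are not given in the sources used here. Columns with the same values throughout were looked for among the samples, and 0 pairs were found. The authors' deposited segment means and 3 single-cell samples were not used.

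Pieces of a mouse were averaged as log2(TPM + 1). A mouse value printed as TPM is this mean turned back to TPM, and group means ± SD are over such values. A fold is the ratio of those means, and log2 differences understate the change of low genes. Genes were kept at a TPM of 1 in at least 3 of the 8 mice. Limma 3.58.1 in R 4.3.3 (lmFit, eBayes with a trend) was fitted to the 3 MTAL and 5 CTAL mice, two-sided, with Benjamini-Hochberg adjustment over all 13447 genes and calls at an adjusted p of 0.05 and a log2 difference of 1. The duct comparison used an interaction contrast over 4 groups. Single values per mouse were compared by exact two-sided permutation tests (scipy 1.17.1). Tested on simulated data, the 2-group fit recovered 98% of 200 changes of 2 log2 units with 4 other genes called, and the interaction recovered 98.5% with 6 others. The noise was normal and the changed genes had a mean log2(TPM + 1) above 3, so recovery at lower levels is unknown. P-values measure the spread between mice, which the labels tell apart by number only.

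Mouse numbers recur between segments, but the design counts as many mice as combinations of number and segment, so equal numbers were not taken as pairs. Upstream windows came from RefSeq (GRCm38.p6, first entry of a gene, chromosome 18 left out). Genes were named from lists of segment and pathway genes, the 15 largest differences in each direction (at least 10 TPM in the higher group, no overlap, predicted, ribosomal and mitochondrial names passed over), the 10 most abundant called genes, the 10 shared with the duct, and Sycn and Car15. Some list members are not reported here by name. The members and lists were chosen with earlier results of these data known. Genes of the duct comparison that reversed were chosen after their values were seen. Alternatives changed the pseudocount, filter, scaling, averaging, replicate unit, groups fitted, variance prior, threshold and mice.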

Additional observations from a re-analysis of the deposited data

Results flagged for a closer look

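In 10 of 108 called genes named above or in this section, 1 of the 5 CTAL mice lay far from the other 4, with a gap to its neighbour of more than 0.71 of the group's range on the log2 scale. Chance alone gives this in about 1 group in 20 for independent normal values of equal spread. Here all genes share the same 5 mice, and CTAL mice 1 and 2 are single pieces while the others are means of 2. The share of genes flagged is therefore not a test against that rate. CTAL mouse 1 was high for Cck (3.39 against 0.288 to 0.82 TPM in the others), Psca (0.14 against 0.0296 to 0.055 TPM) and Bmp4 (104 against 91.3 to 93.6 TPM). CTAL mouse 2 was low for Nupr1 (1.35 against 3.54 to 3.94 TPM) and high for Fbp1 (46.9 against 27 to 29.8 TPM), S100g (42.8 against 30.5 to 33.3 TPM) and Igfbp2 (0.05 TPM, with the others listed at 0, so that any value above 0 would stand out and this gene does not bear on the share). CTAL mouse 3 was low for mt-Nd2 (1830 against 2075 to 2178 TPM) and high for Rhcg (1.55 against 1.1 to 1.22 TPM), and CTAL mouse 5 was high for Ankrd33b (2.95 against 1.11 to 1.52 TPM).

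For 11 named genes the thick limb and the collecting duct were called in opposite directions and the difference between the contrasts, (MTAL minus CTAL) minus (OMCD minus CCD), was itself called in limma's interaction test. It was positive for Fxyd2 (7.28), Gnmt (3.80), Cox7a1 (2.79) and Ckb (2.45), which were higher in MTAL than CTAL and lower in OMCD than CCD. It was negative for Cxcl12 (-4.73), Slc4a11 (-4.70), Bmp4 (-4.10), Ly6c1 (-3.77), Wfdc2 (-2.99), Fgfr3 (-2.94) and Hoxc8 (-2.73), which were higher in CTAL and in OMCD. The call for Cxcl12 in the thick limb was lost without MTAL mouse 1 (adjusted p = 0.0511) or 3 (0.0559). The OMCD samples held more detected genes than the CCD samples, and the part this plays was not tested.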

How the results depend on the processing

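The count of 1202 called genes stayed within 1.5 times of itself under all alternatives except a pseudocount of 5 (511, with 95 higher in MTAL and 416 higher in CTAL) and no minimum log2 difference (4868, with 1477 and 3391). The count higher in MTAL, 218, also moved to 358 with a pseudocount of 0.1 and to 395 with quantile normalization. Leaving out 1 mouse at a time gave 1142 to 1364 calls in all, 213 to 309 higher in MTAL, the most without MTAL mouse 2, and 923 to 1055 higher in CTAL. Of the 1202 genes, 883 remained called in the same direction under quantile normalization and 1093 under median ratio rescaling. The 118 list members called became 297 with no minimum difference. The difference between the contrasts, called for 4696 genes, was called for 1249 with a pseudocount of 5, 1968 with a filter at 5 TPM and 2405 with quantile normalization, and for 4331 to 4944 without 1 mouse. With the mouse number as a replicate block there were 1124 calls, 215 and 909 (4737 for the difference between contrasts), and the calls of Cck, Ckb, Avpr2, Pfkfb3 and Cxcl12 were lost. Deviations of same-numbered mice from their group means correlated at r of -0.236, -0.181 and 0.0629. So few pairs cannot decide whether animals were shared. The numbers were not used as pairs because of the design's count of mice. No named gene (0 of 122 tested) changed sign under any alternative that tested it, and 81 of the 108 called kept their call under each alternative that tested them (8 genes, Psca of the 81 among them, were not tested with the filter at 5 TPM). With a pseudocount of 5, 18 lost it: Kcnq1, Cldn14, Fgfr3, Htr1b, Ptger4, Ramp3, Rhcg, Slc6a12, Ankrd37, Pfkfb3, Pck1, Fzd7, Jag1, Fos, Igfbp2, Aqp2, Hoxc8 and Gnmt. With no filter on low values, the calls of Cck, Kcnt1, Cldn14, Egr1, Fos and Cxcl12 were lost. With all 15 groups in the fit, those of Ckb, Jun, Egr1, Fos and Cd74 were lost. Quantile normalization put Rhcg (-0.90) and Jag1 (-0.94) under the minimum difference, while Esrrb (1.09) and Hoxb6 (1.02) passed it. TPM give no depth, so low values carry an unknown counting error, and 3 against 5 mice cannot go below an exact p of 0.0357.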
